A study of Mus musculus with 12 samples.

Results

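The genes described here encode 10 neuropeptides of primary sensory neurons, namely Calca, Calcb, Tac1, Sst, Nppb, Gal, Npy, Vip, Adcyap1 and Nts. They were chosen by name, as the entries of the deposited count table with one of these symbols, and all 10 were found among the 49315 genes of the table. Levels are given as CPM, the read count of a gene scaled to the total count of that mouse.

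Neuropeptides are short signalling proteins that neurons cut from longer precursors, store in dense-core vesicles and release beside fast transmitters. In dorsal root ganglia (DRG), which hold the cell bodies of the sensory neurons of trunk and limbs, CGRP (from Calca and Calcb) and substance P (from Tac1) are classical peptides of nociceptors, while somatostatin (Sst), natriuretic polypeptide b (Nppb) and neurotensin (Nts) mark a small class of itch neurons. Galanin (Gal), neuropeptide Y (Npy), vasoactive intestinal peptide (Vip) and PACAP (Adcyap1) are known for their induction in DRG neurons after nerve injury.

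The samples were DRG of 12 mice aged 10 months, with 8 ganglia and 1 library per mouse. The 6 Nf2 mice carried Postn-Cre and homozygous floxed Nf2 alleles, and the 6 DKO mice carried these and homozygous floxed alleles of Fak1, annotated as Ptk2. Both genotypes therefore shared the Nf2 deletion, and no mouse with intact Nf2 was compared here. Postn-Cre acts in Schwann cells and their precursors, so neurons, the source of the peptides, were not the cells targeted. Each genotype had 3 mice labelled male and 3 labelled female.

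The total count per mouse was 21129191 to 41250329. All 13 pan-neuronal marker genes were present in every mouse, and the neurofilament gene Nefm ranged from 2570.7 to 3408 CPM. Ptk2 averaged 69.95 ± 3.60 CPM (SD, n = 6) in the Nf2 group against 64.0 ± 10.4 CPM in the DKO group, and its log2 fold change of -0.15 did not pass the test (edgeR adjusted p 0.529). The library of mouse 702, labelled male, had 496 CPM of Xist and 0.525 CPM of the Y-linked gene Ddx3y, which goes against its sex label.

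The first question was whether any of the 10 peptide genes differed between DKO and Nf2 mice. None did by the test used. The filter on low counts kept 9 of the 10 genes and removed Vip, and 0 of these 9 passed an edgeR adjusted p of 0.05, while 172 of all 18295 genes tested did (0.94%). At an unadjusted p below 0.05, 0 of 9 peptide genes passed with edgeR against 2722 of all tested genes (14.9%), and 0 of 9 passed an adjusted p of 0.05 with DESeq2 against 831 of all (4.54%). The CPM of the genotypes overlapped for all 10 peptide genes, whereas 1.95% of all tested genes did not overlap. The smallest edgeR adjusted p among them was 0.519, for Nppb. The median log2 fold change of the 9 was -0.01, and that of all tested genes was 0.00467. In bulk tissue, fewer cells of a type and less RNA per cell cannot be told apart.

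**Figure D1:**
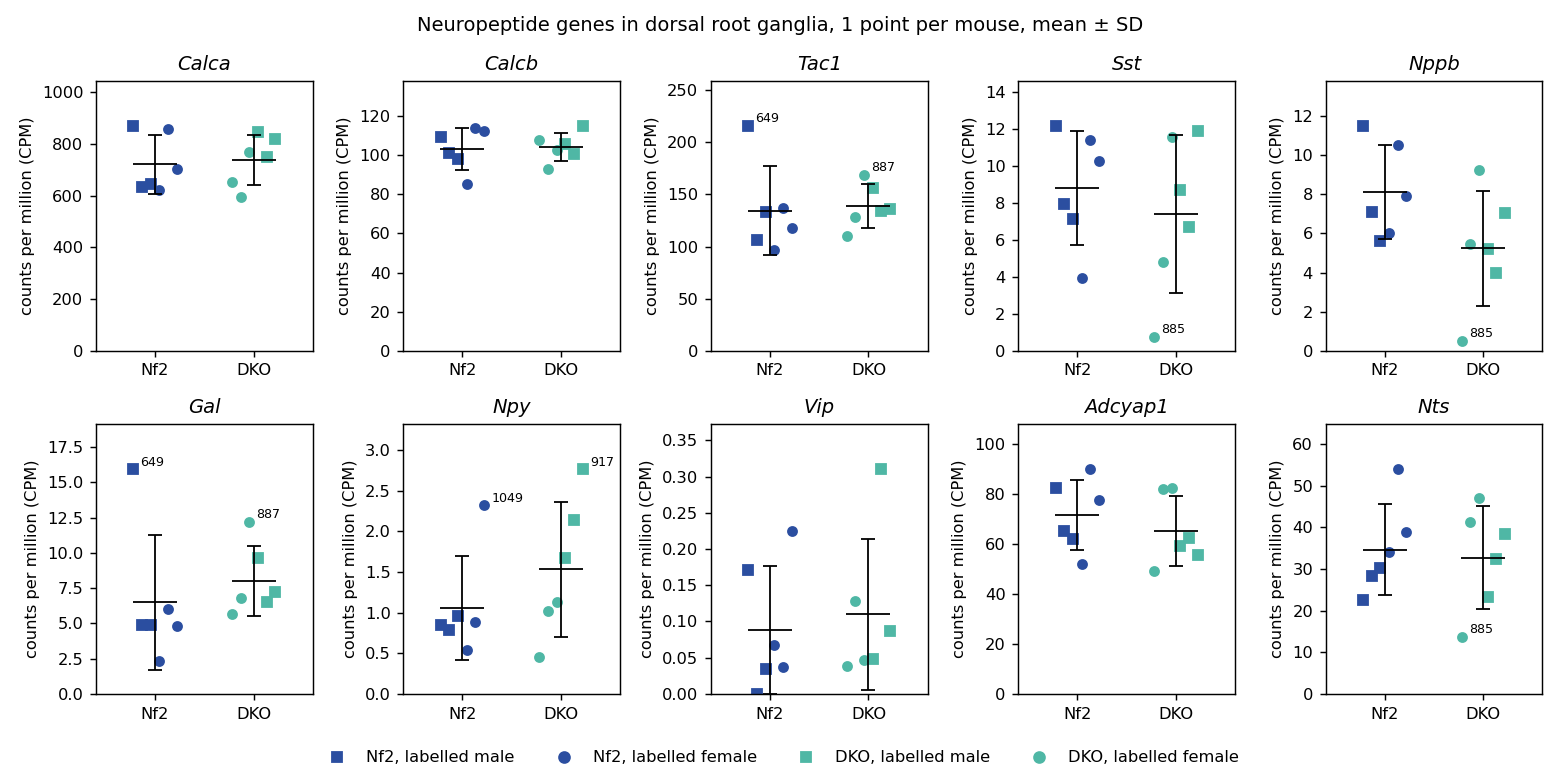
Level of each peptide gene in CPM (vertical axes, linear from 0) in Nf2 and DKO mice, with 1 point per mouse (squares, labelled male; circles, labelled female), a bar at the mean and whiskers of 1 SD. The genotypes overlap in every panel, and mouse 885 lies far below the others for Sst (0.759 CPM) and Nppb (0.493 CPM).

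Levels of different genes can only be set beside each other per length, so counts were divided by the summed exon length and scaled to the same sum in each library (TPM). Calca led with 1620.3 ± 193 TPM (mean ± SD, n = 12) and made up 68.6% of the summed TPM of the 10 genes. Calcb followed at 307 ± 25.6 TPM and Tac1 at 149.6 ± 28.4 TPM. The Calca, Calcb and Tac1 ranges did not overlap. In CPM, however, Tac1 was above Calcb in every mouse (means 137 and 104 CPM). Their order in TPM thus rests on the summed exon lengths of 3399 bases for Tac1 and 1264 for Calcb. These lengths take in all annotated transcripts of a gene, not only those expressed here. Below these 3 genes stood Nts at 101 ± 32.1 TPM, Adcyap1 at 67.3 ± 11.7 TPM, Sst at 41.6 ± 17.6 TPM, Gal at 33.9 ± 15.5 TPM, Nppb at 31.6 ± 12.9 TPM and Npy at 8.61 ± 5.13 TPM. From Tac1 down to Npy, each gene's range overlapped that of the next. Within the same mouse, Tac1 was above Nts in 11 of 12 mice and Nts above Adcyap1 in 10. Adcyap1 was above Sst in 11 mice and Nppb above Npy in 11. Sst was above Gal in only 8 and Gal above Nppb in only 7. No test was made of these orders. Vip was the lowest at 0.109 ± 0.104 TPM, and every mouse had less Vip than Npy.

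**Figure D2:**
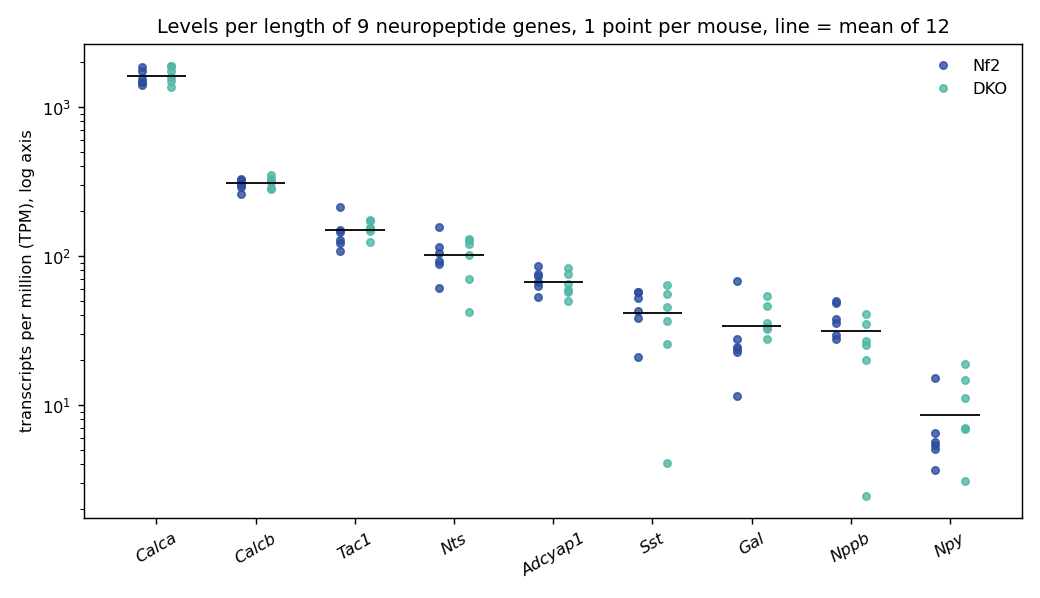
Level per length of 9 peptide genes in TPM (vertical axis, log scale; Vip is left out because 1 mouse had no read), with 1 point per mouse and a line at the mean of 12 mice. Calca and Calcb stand clear of all others, and the 2 low points of Sst (4.05 TPM) and Nppb (2.43 TPM) belong to mouse 885.

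Calca and Calcb encode the alpha and beta forms of CGRP (calcitonin gene-related peptide), a vasodilator and pain mediator. Calca (ENSMUSG00000030669, GRCm38 chromosome 7, 114631478 to 114636357, minus strand) and Calcb (ENSMUSG00000030666, chromosome 7, 114718643 to 114723365, plus strand) lie 82.3 kb apart. The stretch of exon 4 that encodes the mature peptide is 111 bases long in both genes, at chr7:114632470-114632580 (minus strand) and chr7:114721994-114722104 (plus strand). It is shown because the paralogs are nearly identical where they encode the same hormone. It is 95.5% identical, and capitals mark the 5 bases that differ:
Calca: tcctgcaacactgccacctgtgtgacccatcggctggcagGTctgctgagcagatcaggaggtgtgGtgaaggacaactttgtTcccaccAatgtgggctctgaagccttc
Calcb: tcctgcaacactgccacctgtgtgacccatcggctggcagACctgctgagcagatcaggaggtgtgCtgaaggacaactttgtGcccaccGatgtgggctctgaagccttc

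The longest run shared by the transcripts, of 994 and 962 bases, was 60 bases. How reads that match both genes were counted is not given in the sources used here, so a share of reads from this stretch may be missing or divided between the genes.

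Calca had 619.9 to 869 CPM in Nf2 mice (median 674) and 593 to 844 CPM in DKO mice (median 760.03). The ranges overlapped, with Nf2 mice 649 and 1048 above every DKO mouse and DKO mouse 886 below every Nf2 mouse. The log2 fold change in DKO against Nf2 was 0.01 ± 0.11 (SE, 95% interval -0.23 to 0.26, edgeR adjusted p 0.970), an interval that on the linear scale runs from 0.854 to 1.19.

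Calcb had 85.1 to 114 CPM in Nf2 mice (median 105) and 93.1 to 115 CPM in DKO mice (median 104). It varied least among the 10 genes, with a highest value 1.35 times the lowest over the 12 mice. The difference was -0.01 ± 0.07 on the log2 scale (95% interval -0.16 to 0.15, edgeR adjusted p 0.982). The number of Calca reads per Calcb read lay between 6.05 and 7.98 in all 12 mice, with mouse 885 lowest and mouse 914 highest, both DKO.

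Tac1 (ENSMUSG00000061762, chromosome 6, 7554879 to 7565834) encodes the precursor of substance P and neurokinin A. It had 96.2 to 216 CPM in Nf2 mice (median 126) and 109.97 to 169 CPM in DKO mice (median 135). Mouse 649 was the highest, and the other 5 Nf2 mice had at most 137 CPM. The log2 fold change was 0.03 ± 0.17 (95% interval -0.34 to 0.41, edgeR adjusted p 0.957), and it was 0.22 without mouse 649 and -0.05 without mouse 887, so its sign rested on single mice.

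Adcyap1 (ENSMUSG00000024256, chromosome 17, 93199017 to 93206537) encodes PACAP, a peptide of the secretin family. It had 52.1 to 89.8 CPM in Nf2 mice (median 71.3) and 48.95 to 82.3 CPM in DKO mice (median 60.6). Mouse 885 was the lowest of all 12 mice and Nf2 mouse 1048 the highest. Adcyap1 differed by -0.15 ± 0.15 on the log2 scale (95% interval -0.48 to 0.18, edgeR adjusted p 0.704), and by -0.25 without mouse 887 and -0.08 without mouse 885.

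Gal (ENSMUSG00000024907, chromosome 19, 3409915 to 3414544) encodes galanin, which is scarce in intact sensory neurons. It had 2.37 to 15.9 CPM in Nf2 mice (median 4.90) and 5.65 to 12.2 CPM in DKO mice (median 7.01). The order of the mice was uneven, since 4 of 6 Nf2 mice lay below every DKO mouse, whereas mouse 649 lay above every other mouse. In edgeR the log2 fold change was 0.29 ± 0.37 (95% interval -0.50 to 1.08, edgeR adjusted p 0.771). An exact two-sided permutation test of the difference of mean log2(CPM + 4), which was 0.27, gave p 0.318 over 924 splits, of which the smallest possible p is 0.00216. Without mouse 649 this difference was 0.47 with an exact permutation p of 0.00866, and the edgeR log2 fold change was 0.79 with an adjusted p of 0.150. Leaving out mouse 887 or mouse 918 lowered the values instead, to 0.18 and 0.14 on log2(CPM + 4) (exact permutation p 0.535 and 0.574) and to 0.11 each in edgeR.

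Other markers of nerve injury were read beside it. Of 12 listed injury genes, 11 were tested and 0 passed in either direction, beside 0.94% of all tested genes. Their median log2 fold change was -0.05, positive for 2 of the 11 and otherwise negative. An unadjusted edgeR p below 0.05 was found for 2 of the 11, beside 14.9% of all tested genes. The summed level of the list was 416 to 561 CPM in Nf2 mice and 427 to 529.9 CPM in DKO mice, and mice 649 and 1048 were the highest. Atf3, the transcription factor most used to mark injured sensory neurons, had 33.3 to 38.5 CPM in Nf2 mice and 23.3 to 36.1 CPM in DKO mice, with a log2 fold change of -0.26 ± 0.10 that did not pass the test (edgeR adjusted p 0.236).

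Npy (ENSMUSG00000029819, chromosome 6, 49822710 to 49829507) encodes neuropeptide Y, which is abundant in sympathetic neurons and in inhibitory neurons of the spinal cord. It had 0.541 to 2.32 CPM in Nf2 mice (median 0.866) and 0.455 to 2.76 CPM in DKO mice (median 1.40), from 12 to 69 reads per mouse. Among Nf2 mice only mouse 1049 exceeded 1 CPM, and among DKO mice the 3 labelled male, at 1.67 to 2.76 CPM, lay above the 3 labelled female, at 0.455 to 1.14 CPM. For Npy the log2 fold change was 0.52 ± 0.41 (95% interval -0.36 to 1.40, edgeR adjusted p 0.612), but it was 0.90 without mouse 1049 (edgeR adjusted p 0.303) and 0.28 without mouse 917 (edgeR adjusted p 0.860).

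Markers of cells that could carry Npy into the sample were measured in the same mice. Of the sympathetic markers, Dbh reached at most 0.0759 CPM and Hand1 at most 0.0426 CPM in any mouse, 7 of the 10 listed genes averaged below 1 CPM, and 0 of the 4 tested passed. The summed level of the list was 33.6 to 94.3 CPM in Nf2 mice and 46.9 to 75.6 CPM in DKO mice, supplied mostly by Th (22.2 to 79.4 and 32.4 to 59.5 CPM), which touch-sensitive sensory neurons also express, and by Chrna3 (9.23 to 12.5 and 9.51 to 13.4 CPM). The gene most like Npy over the 12 mice, after the mean of each genotype was subtracted, was Slc25a18 (r 0.941 over 12 mice, among 14178 genes), followed by Chrna4 (r 0.899) and Gad2 (r 0.883). The inhibitory neuron genes Slc32a1, Slc6a5 and Gad1 ranked 7, 15 and 19. Other listed markers of the dorsal horn ranked lower, with Pax2 at 129, Pax8 at 290 and Lmx1b at 463. Slc17a8, Tlx3 and Zfhx3 ranked 6438, 9372 and 10025 (r 0.00553, -0.127 and -0.159). Gad2, which makes the transmitter GABA, had 4.49 CPM in Nf2 mouse 1049 and 3.15 to 7.73 CPM in the 3 DKO mice labelled male, against at most 1.23 CPM in the other mice except mouse 884, which had 3.18 CPM of Gad2 and 0.957 CPM of Npy. Over the list of 12 dorsal horn markers, 0 of the 11 tested genes passed, 0 were without reads in all mice, and the summed level was 110.4 to 221 CPM in Nf2 mice and 130.04 to 221 CPM in DKO mice. Zfhx3 and Tlx3 supplied most of that sum, with means of 70.0 and 55.2 CPM in Nf2 mice. Which cells carried these genes was not tested, so the sum cannot be read as spinal cord RNA alone. Astrocytes are glia of the spinal cord, but not every listed gene is particular to them. Slc1a3 is also on the satellite glia list. The astrocyte genes passed for 0 of 8 tested but were positive in log2 fold change for 7 of 8. Their summed level averaged 177 ± 51.7 CPM in Nf2 and 255 ± 83.6 CPM in DKO mice (SD, n = 6 each). That sum was highest in mice 917, 915 and 914, the DKO mice labelled male, at 376, 313 and 271 CPM, followed by mice 884 and 886 at 251 and 244 CPM and mouse 1049 at 232 CPM, against at most 168 CPM in the others. Oligodendrocyte genes were positive for 6 of 7 tested, with a median log2 fold change of 0.55 and summed levels of 200.3 to 315 CPM in Nf2 and 211 to 302 CPM in DKO mice. The part of spinal cord RNA in the Npy level was not tested.

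Vip (ENSMUSG00000019772, chromosome 10, 5639218 to 5647617) encodes vasoactive intestinal peptide. It had 0 to 6 reads in Nf2 mice and 1 to 8 reads in DKO mice, that is 0 to 0.224 CPM (median 0.0521) and 0.0379 to 0.310 CPM (median 0.0674). Mouse 702 had no read, which at its depth allows a level of up to 0.113 CPM (3 reads, counting error only). No genotype difference was detectable at this depth, with an exact permutation p of 0.723 on log2(CPM + 4).

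Sst and Nppb are carried by the same class of itch neurons, which release both peptides into the spinal cord and express the interleukin 31 receptor. The 250 bases before the RefSeq start of each gene (GRCm38.p6) are shown because the levels of this pair varied together across mice, as described further on. GENCODE places the outermost start of both genes further upstream, inside these windows. In Sst, at chr16:23890845-23891094 (minus strand), capitals mark the cyclic AMP response element TGACGTCA, which lies 48 bases before the start. In Nppb, at chr4:147985650-147985899 (plus strand), capitals mark a TATA box, TATAAA, 31 bases before the start:
Sst: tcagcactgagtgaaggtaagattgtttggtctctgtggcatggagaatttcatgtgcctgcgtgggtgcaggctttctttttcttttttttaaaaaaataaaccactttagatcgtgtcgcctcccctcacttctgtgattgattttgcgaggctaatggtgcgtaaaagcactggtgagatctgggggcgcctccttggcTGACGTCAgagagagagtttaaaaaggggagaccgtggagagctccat
Nppb: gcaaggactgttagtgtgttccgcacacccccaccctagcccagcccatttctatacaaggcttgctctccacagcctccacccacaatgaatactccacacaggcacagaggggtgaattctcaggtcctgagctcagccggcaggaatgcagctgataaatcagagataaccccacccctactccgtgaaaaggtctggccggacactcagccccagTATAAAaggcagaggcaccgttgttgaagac

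On either strand, TGACGTCA was found in 1.55% of 32851 promoters of this length and TATAAA in 12.4%. Promoters were matched for 9 of the 10 genes, all but Calcb, and the full element TGACGTCA occurred in Sst alone among them. Its shorter form TGACG, part of the full element and found in 17.8% of all promoters, occurred in Calca, Tac1, Sst, Vip, Adcyap1 and Nts, and these letters were absent from the windows of Nppb, Gal and Npy.

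Sst (ENSMUSG00000004366, chromosome 16, 23889573 to 23890958) had 3.92 to 12.1 CPM in Nf2 mice (median 9.08) and 0.759 to 11.9 CPM in DKO mice (median 7.66). The DKO range was set by mouse 885, which had 20 reads where the other 11 mice had 113 to 357. Sst differed by -0.27 ± 0.45 on the log2 scale (95% interval -1.23 to 0.70, edgeR adjusted p 0.832), and -0.45 without mouse 887 and -0.03 without mouse 885.

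Nppb (ENSMUSG00000029019, chromosome 4, 147985788 to 147987205) had 5.64 to 11.5 CPM in Nf2 mice (median 7.51) and 0.493 to 9.23 CPM in DKO mice (median 5.32). Mouse 885 was again far below the rest, with 13 reads against 103 to 287. The log2 fold change was -0.65 ± 0.43 (95% interval -1.57 to 0.27, edgeR adjusted p 0.519), and -0.41 without mouse 885 (adjusted p 0.518). On log2(CPM + 4) the difference was -0.44 with an exact permutation p of 0.0844. With 0.5 CPM added in place of 4, the difference was -0.82 (exact permutation p 0.0823). Divided by the same mouse's summed level of the 13 pan-neuronal genes, CPM + 0.5 gave -0.86 on the log2 scale (exact permutation p 0.0346). For log2(CPM + 4) without mouse 887 the difference was -0.56 (exact permutation p 0.0173). Without mouse 885 that of log2(CPM + 4) was -0.25 (exact permutation p 0.169). None of these values was adjusted for the number of genes, and 4 of 6 DKO mice lay below every Nf2 mouse.

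Nts (ENSMUSG00000019890, chromosome 10, 102481756 to 102490486) encodes neurotensin. It had 22.6 to 53.98 CPM in Nf2 mice (median 32.1) and 13.7 to 47.1 CPM in DKO mice (median 35.5). Mouse 885 was the lowest of all mice here too. The log2 fold change was -0.10 ± 0.27 (95% interval -0.67 to 0.47, edgeR adjusted p 0.902), and 0.06 without mouse 885.

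**Figure D3:**
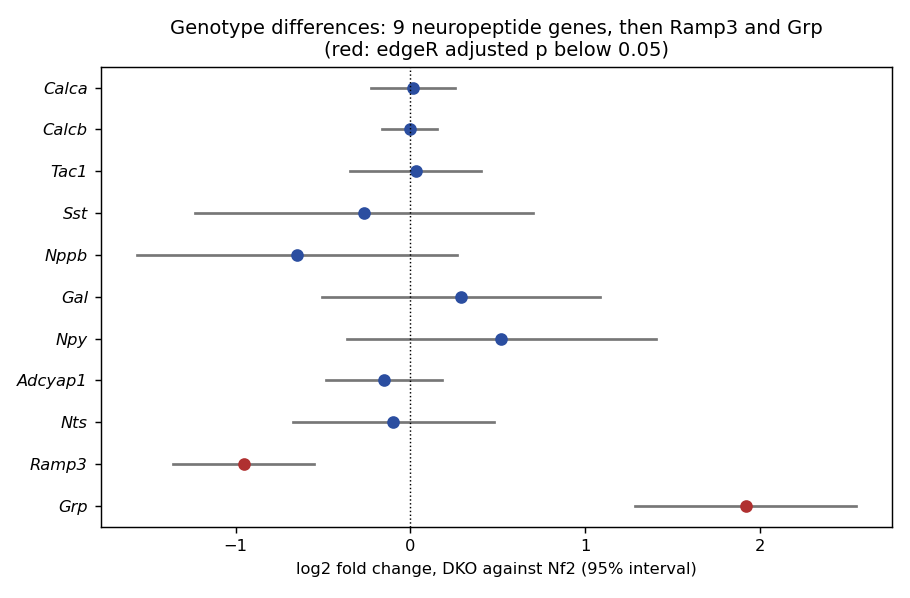
Log2 fold change in DKO against Nf2 mice (horizontal axis) with its 95% interval from edgeR for the 9 tested peptide genes and for Ramp3 and Grp, described further on. All 9 intervals of the peptide genes include 0, widest for Sst (-1.23 to 0.70) and Nppb and narrowest for Calcb (-0.16 to 0.15).

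Mouse 885, a DKO mouse labelled female, thus stood apart for the peptides of itch neurons. Its Sst level was 8.77% and its Nppb level 7.01% of the median of the other 11 mice, and it was also the lowest of the 12 mice for Nts at 40.3%, Npy at 44.6% and Adcyap1 at 75.3%. Of the 5 listed markers of the same neurons, it was the lowest for the interleukin 31 receptor gene Il31ra (14.9% of the median), for Cysltr2 (36.7%), for Htr1f (57.6%) and for Osmr (69.5%), but not for Plxnc1 (106%), which other sensory neurons also express.

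Genes of other sensory neurons in that mouse lay on both sides of the median. Mrgprd and Mrgpra3, markers of the neighbouring classes of non-peptidergic neurons, were at 104% and 112% of the median, the neuronal gene Rbfox3 at 96.9%, Calcb at 105%, Calca at 86.7%, the heat sensor gene Trpv1 at 87.4% and Tac1 at 81.9%, while the tyrosine hydroxylase gene Th was the second highest of the 12 mice at 149%. Its total count of 26353044 and its mitochondrial share of 2.32% lay within the range of the other mice. Which ganglia were taken from each mouse is not given in the sources used here, and the part of the dissection in these values was not tested.

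Across genotypes, 0 of the 5 itch neuron markers passed the test in either direction and all 5 had a negative log2 fold change, with a median of -0.24. Beside 0.94% of all tested genes called and 14.9% with an unadjusted p below 0.05, 3 of the 5 had such an unadjusted p. Il31ra had 19.7 to 27.6 CPM in Nf2 mice and 3.07 to 20.6 CPM in DKO mice, and its log2 difference was -0.70 ± 0.30 (SE, edgeR adjusted p 0.293). The summed level of the 5 genes was 355 to 459 CPM in Nf2 mice and 339 to 447 CPM in DKO mice.

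**Figure D4:**
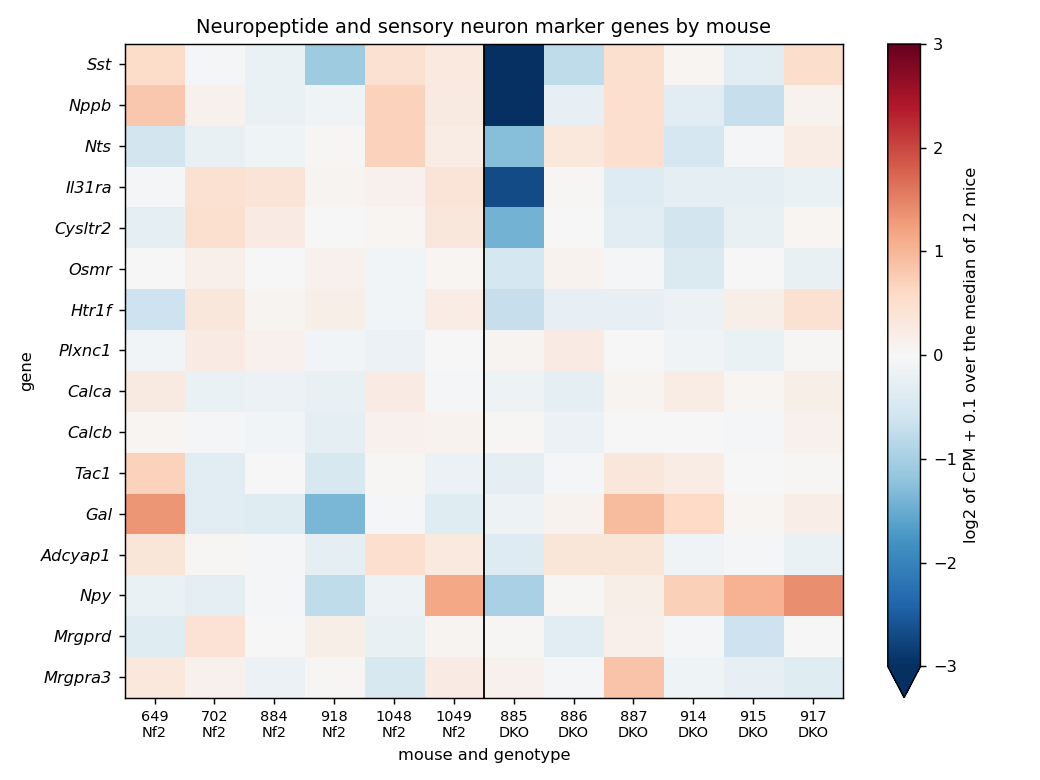
Log2 ratio of each gene's CPM, with 0.1 added, to its median over the 12 mice (colour, limited to -3 to 3), for peptide and sensory neuron marker genes (vertical axis) in each mouse (horizontal axis, Nf2 on the left). Mouse 885 is dark blue for Sst (-3.29) and Nppb and for Il31ra, and pale for Calcb and Mrgprd.

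The second question was which peptide genes varied together from mouse to mouse. For the 9 genes with a mean of at least 1 CPM, Pearson's r of log2(CPM + 4) was computed for all 36 pairs, with permutation p-values adjusted over the 36 pairs by the Benjamini-Hochberg method. The adjusted p was below 0.05 for 4 pairs by Pearson's r and for 6 by Spearman's rho, all with a positive sign. It was below 0.05 for 1 pair after the 2 mice farthest from the median of the first gene were left out, and for 0 pairs within either genotype. There 6 mice are too few for a pair to pass unless other pairs have small p-values too. That count of 0 therefore says little about whether the relations hold there.

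Tac1 and Gal gave the closest pair. Over 12 mice r was 0.948 (permutation p 1e-05, adjusted 0.00036), the smallest p that 100000 resamples can give, and rho was 0.860 (permutation p 0.00070, adjusted 0.0175). Without mice 649 and 918 r was 0.864 (permutation p 0.00084, adjusted 0.0302). Within Nf2 mice r was 0.966 and within DKO mice 0.949, with adjusted permutation p-values of 0.0583 and 0.150. Mice 649 and 887 had the highest levels of both genes, and they also had the highest mitochondrial share of reads, at 4.45% and 5.60% against 1.99% to 3.15% in the other mice. The part of RNA quality in this relation was not tested.

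Sst and Nppb followed, with r 0.886 (permutation p 0.00043, adjusted 0.00774) and rho 0.783 (permutation p 0.0041, adjusted 0.0393). Without mouse 885, r was 0.710 (permutation p 0.0151, adjusted 0.0905), and without mice 885 and 918 it was 0.786 (permutation p 0.00738, adjusted 0.128). The adjusted call was lost in both cases, at n = 11 and n = 10. The part of the smaller number of mice in that loss was not tested. Within Nf2 mice r was 0.840 and within DKO mice 0.934, with adjusted permutation p-values of 0.0875 and 0.217. The number of Nppb reads per Sst read was 0.593 to 1.53 over all mice. It lay between 0.593 and 0.599 in the 3 DKO mice labelled male, below every other mouse.

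The remaining pairs past the threshold were Calca with Tac1 (r 0.733, permutation p 0.00471, adjusted 0.0424) and Nppb with Adcyap1 (r 0.728, permutation p 0.00318, adjusted 0.0382). Without the 2 farthest mice r was 0.769 (adjusted permutation p 0.128) and 0.604 (adjusted permutation p 0.295) at n = 10, so the adjusted calls were lost. The unadjusted permutation p was then 0.0107 for Calca with Tac1, whose r had risen, and 0.0656 for Nppb with Adcyap1. Calca with Calcb, the paralogs, had r 0.705 (permutation p 0.00862, adjusted 0.0527) and rho 0.748 (permutation p 0.00684, adjusted 0.0410). Calcb with Sst had r 0.474 (permutation p 0.120, adjusted 0.240) over all mice and 0.918 without mouse 885 (permutation p 6e-05, adjusted 0.00108).

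**Figure D5:**
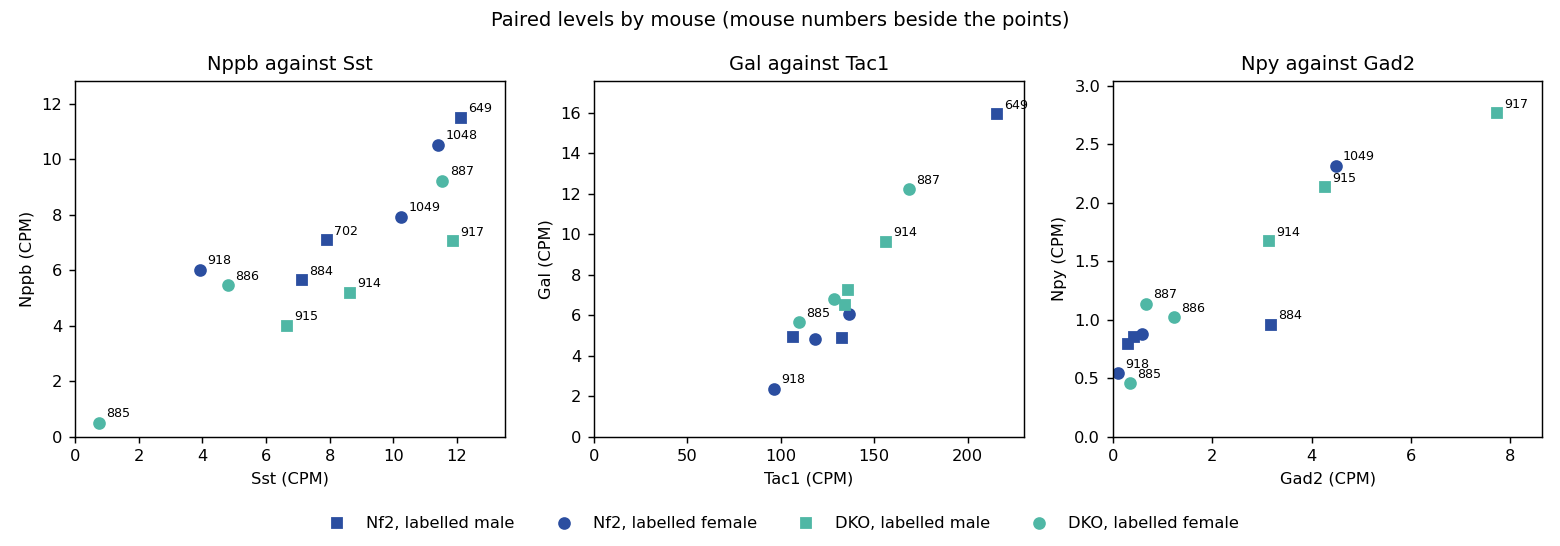
Level in CPM of Nppb against Sst, of Gal against Tac1 and of Npy against Gad2, with 1 point per mouse (blue, Nf2; green, DKO; squares, labelled male; circles, labelled female; axes linear from 0). Mouse 885 lies near the origin for Sst and Nppb, mice 649 and 887 are the highest for Tac1 and Gal, and Npy is highest in mice 917, 1049 and 915, which also lead for Gad2.

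Genes whose pattern over the 12 mice was most like that of a peptide gene were ranked among 14178 genes by r of log2 CPM after the mean of each genotype was subtracted. These values are a description only, since the genes with the highest r were picked and no test was made. The gene most like Sst was Nppb (r 0.946), followed by the serotonin receptor gene Htr1a (r 0.909) and Zfp772 (r 0.904). For Nppb, Sst was followed by Megf6 (r 0.923) and Prox2os (r 0.877), and Il31ra ranked 5 for Nppb (r 0.858) and 10 for Sst (r 0.811). Of the other listed itch neuron markers, Cysltr2 ranked 77 and 112, and Osmr 647 and 2364, for Nppb and Sst in that order. Htr1f ranked 2375 and 1555, and Plxnc1 8166 and 9567. Mouse 885, the lowest for Sst, Nppb and Il31ra, was included in this ranking.

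For Tac1 the 3 closest genes were Sirt4 (r 0.968), Gal (r 0.957) and Ndufaf2 (r 0.948), both Sirt4 and Ndufaf2 encoding mitochondrial proteins. For Gal they were Lin37 (r 0.966), the tubulin gene Tubb2b (r 0.964) and the neuronal gene Crmp1 (r 0.963). Those of Calca were Pex10, Gba2 and Maged1 (r 0.922 to 0.929), those of Calcb were Zwilch, BC030867 and Ccdc184 (r 0.910 to 0.925), and those of Adcyap1 were Cabyr, Snhg12 and Chfr (r 0.910 to 0.919). For Nts they were BC002163 (r 0.895), Cndp1 (r 0.870) and Ptpdc1 (r 0.837), with the itch neuron markers Cysltr2 and Il31ra ranking 22 and 34. The markers Osmr, Htr1f and Plxnc1 ranked 192, 419 and 8762 for Nts.

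The third question was whether the peptide genes differed between labelled sexes. With genotype as a covariate, 3 of 18295 genes passed an edgeR adjusted p of 0.05 (0.0164%), none of them a peptide gene, and 0 of 9 peptide genes had an unadjusted p below 0.05 against 533 genes in all (2.91%). The log2 fold changes in females against males ran from -0.44 for Gal to 0.38 for Nts. Without mouse 702, 10 genes passed and again no peptide gene.

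The interaction of genotype and labelled sex passed for 2 genes (0.0109%) and for 0 of the 9. For Npy the log2 fold change in DKO against Nf2 differed between labelled sexes (females minus males) by -1.79 ± 0.69 (95% interval -3.30 to -0.27, unadjusted edgeR p 0.0250, adjusted 0.920), and it was the only one of the 9 with an unadjusted p below 0.05, against 874 genes in all (4.78%). Without mouse 1049 it was -0.99. The 3 DKO males and Nf2 female 1049, with the highest Npy, also had high Gad2, as did mouse 884, whose Npy was 0.957 CPM. Gal had the next interaction by size at 1.09 ± 0.69 (edgeR adjusted p 0.920), and 0.27 without mouse 649, labelled male, which had the highest Gal level.

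Peptides act through receptors, most of them on other cells, and 28 of 29 listed receptor genes were in the table and 26 were tested (Galr3 was not analysed here). Higher levels in DKO mice passed for 0 of the 26 and lower levels for 1, beside 0.372% and 0.568% of all tested genes. The median log2 fold change of the 26 was 0.20. Unadjusted p-values below 0.05 were found for 5 of 26, beside 14.9% of all tested genes.

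The receptor gene that fell was Ramp3 (ENSMUSG00000041046, chromosome 11, 6658521 to 6677475), whose product joins the calcitonin receptor-like receptor to form an adrenomedullin receptor. It had 10.2 to 17.6 CPM in Nf2 mice (median 12.04) and 4.54 to 9.41 CPM in DKO mice (median 6.38), and every DKO mouse lay below every Nf2 mouse. Its log2 fold change was -0.95 ± 0.19 (95% interval -1.36 to -0.55, edgeR adjusted p 0.0293), or 0.516-fold. The call was kept in 5 of the 12 fits that left out 1 mouse, with adjusted p-values from 0.0158 to 0.0720 and log2 fold changes from -1.08 to -0.84, and was lost without each of mice 702, 884, 918, 1049, 885, 915 and 917. The opposite-strand gene Gm11978 overlaps Ramp3 and had at most 0.0850 CPM.

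The genes of the CGRP receptor, Calcrl and Ramp1, did not pass. Calcrl had 7.33 to 10.7 CPM in Nf2 mice and 7.10 to 11.6 CPM in DKO mice, and Ramp1, which makes it a CGRP receptor, had 3.19 to 5.01 and 2.41 to 6.69 CPM. The substance P receptor gene Tacr1 stayed below 1 CPM in every mouse. The somatostatin receptor gene Sstr2 had 1.84 to 3.03 CPM in Nf2 mice and 1.32 to 2.57 CPM in DKO mice, a log2 difference of -0.43 ± 0.18 (SE, edgeR adjusted p 0.287).

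For neuropeptide Y, the receptor gene Npy2r had 17.5 to 31.1 CPM in Nf2 mice and 10.7 to 19.97 CPM in DKO mice, with a log2 fold change of -0.58 ± 0.17 that missed the threshold (edgeR adjusted p 0.131). Npy1r had 6.80 to 13.1 and 10.3 to 16.6 CPM. The galanin receptor genes Galr1 and Galr2 had log2 fold changes of 0.56 ± 0.28 and 0.65 ± 0.41, and Adcyap1r1, the PACAP receptor gene, 0.70 ± 0.42, none of which passed (edgeR adjusted p 0.372, 0.506 and 0.478).

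Genes that cut, amidate, store and release peptides gave no call. Of 16 listed genes, 16 were tested and 0 passed in either direction, with a median log2 fold change of 0.04 and summed levels of 3433 to 3942 CPM in Nf2 mice and 3429 to 3999.8 CPM in DKO mice. The most abundant were the carboxypeptidase gene Cpe (1110.1 ± 38.9 and 1007 ± 64.2 CPM, mean ± SD, n = 6), the granin gene Scg3 (588 ± 101 and 525 ± 62.2 CPM) and the vesicle priming gene Cadps (354 ± 56.4 and 434 ± 34.3 CPM). Of 10 genes of peptide-degrading enzymes, 0 passed, and the most abundant, Ece1, gave -0.24 ± 0.08 (log2, SE) with an adjusted edgeR p of 0.149. The log2 fold changes of these 10 ran from -0.24 to 1.12. An unadjusted edgeR p below 0.05 was found for 4 of these 10 and for 3 of the 16 above. Among all tested genes, 0.94% passed and 14.9% had such an unadjusted p.

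Among 32 other peptide genes, 17 were tested, of which 1 was higher in DKO mice and 0 lower, with a median log2 fold change of 0.23. Of all tested genes, 0.372% were higher and 0.568% lower. An unadjusted edgeR p below 0.05 was found for 3 of the 17, beside 14.9% of all tested genes. The gene called was Grp (ENSMUSG00000024517, chromosome 18, 65872820 to 65886596), which encodes gastrin-releasing peptide, a transmitter of itch circuits. It had 0.203 to 0.383 CPM in Nf2 mice, from 6 to 9 reads per mouse, and 0.757 to 2.16 CPM in DKO mice, from 16 to 53 reads. Every DKO mouse lay above every Nf2 mouse. Its log2 fold change was 1.92 ± 0.29 (95% interval 1.29 to 2.55, edgeR adjusted p 0.00838), or 3.78-fold, and the call was kept in all 12 fits that left out 1 mouse. Grp is also made in the dorsal horn of the spinal cord. Log2 fold changes were positive for 7 of 8 astrocyte, 6 of 7 oligodendrocyte and 7 of 11 dorsal horn genes given beside Npy. An unadjusted edgeR p below 0.05 was found for 1, 0 and 0 of these. The summed astrocyte level overlapped between genotypes, at 120 to 251 CPM in Nf2 and 160 to 376 CPM in DKO mice. The summed oligodendrocyte level averaged 262 CPM in Nf2 and 257 CPM in DKO mice. The part of spinal cord RNA in the level of Grp was not tested.

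Marker genes of neurons and of the other cells of the ganglion were read in the same fit, which called 0.94% of all tested genes. Of the 13 pan-neuronal genes and the 10 markers of peptidergic neurons, 0 passed, with median log2 fold changes of 0.01 and 0.04. The summed pan-neuronal level was 11802 to 15773 CPM in Nf2 mice and 13087 to 14405 CPM in DKO mice, and mouse 649 had the highest and mouse 918 the lowest. Among 9 large-neuron markers, Calb1 was higher in DKO mice (log2 fold change 0.82 ± 0.15, edgeR adjusted p 0.0195). Of the 9 Schwann cell genes, the cells in which the deletions were made, 0 passed, and of the 8 satellite glia genes also 0. Of 10 macrophage genes, C1qb was lower in DKO mice (log2 fold change -0.71 ± 0.12, edgeR adjusted p 0.0138). Skeletal muscle genes, 0 of 10 past the threshold, had summed levels of 51.7 to 968 CPM in Nf2 mice and 61.2 to 339 CPM in DKO mice. Markers of motor neurons and non-peptidergic neurons gave 0 calls among 4 and 9 tested genes. An unadjusted p below 0.05, found for 14.9% of all tested genes, was found for 8 of 10 skeletal muscle, 6 of 10 macrophage, 4 of 10 peptidergic, 4 of 9 large-neuron, 3 of 8 satellite glia, 0 of 13 pan-neuronal and 0 of 9 Schwann cell genes.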

How the data were processed

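DRG of 6 Nf2 and 6 DKO mice were profiled by poly(A) RNA sequencing at a commercial provider. The deposited values are unnormalized counts of reads, whole numbers for each Ensembl identifier in each mouse. The submitters' processing notes name Trimmomatic 0.36, STAR 2.5.2b, featureCounts, Subread 1.5.2 and GRCm38, without their settings, so strand and reads with several matches are not described. Coordinates and exon lengths came from GENCODE M21 (GRCm38), which held 99.5% of the 49315 identifiers.

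The main test was edgeR 4.0.16 under R 4.3.3 (filterByExpr by genotype, TMM scaling, quasi-likelihood F test, Benjamini-Hochberg adjustment over 18295 genes, threshold 0.05). TPM were counts per summed exon length, scaled per library. DESeq2 1.42.0 and limma 3.58.1 (voom) were alternatives. Single genes were compared on log2(CPM + 4) by two-sided exact permutation over 924 splits, with the smallest p at 0.00216, and correlations used 100000 resamples (scipy 1.17.1). Figures used matplotlib 3.10.9. The procedures were tested on simulated data.

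The peptide genes, marker lists and comparisons were chosen with earlier results of these data known. Named were the 10 genes, list genes past the threshold or among the 3 most abundant of a list, and the 3 genes most like each peptide gene (minimum mean 1 CPM, prior count 2, no Gm or Rik symbols). Receptor, injury, sympathetic, itch neuron and inhibitory neuron genes beyond this, Atf3 and the other genes compared in mouse 885 were named after their values were seen. Tafa1 and Tafa4 were matched under the older symbols Fam19a1 and Fam19a4. Further alternatives were other scaling and filters, sex as a covariate, each sex alone, other pseudocounts and each mouse left out. Single values of some list genes are not reported here. The labels give no batch. Nothing states whether mice shared a litter, and p-values measure the spread between these mice.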

Additional observations from a re-analysis of the deposited data

Results flagged for a closer look

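In the groups of 6 mice, 4 values of the peptide genes lay far from the other 5 mice by Dixon's test at the 95% level, among 38 tests of 10 genes on 2 scales, where chance gives about 1.9. Sst in DKO mouse 885 was -0.28 on edgeR's log2 CPM scale, and the nearest DKO mouse was at 2.29. Nppb in the same mouse was -0.83, and the nearest was at 1.99. Npy in Nf2 mouse 1049 was 2.66 on the log2(CPM + 4) scale, with the nearest Nf2 mouse at 2.31. Vip in DKO mouse 915 was 2.11 on that scale, with the nearest at 2.05, a distance that rests on 8 reads against at most 3 reads in the other DKO mice. No value lay far on both scales. On log2(CPM + 4), mouse 885 had a ratio of gap to range of 0.511 for Sst and 0.533 for Nppb, and on edgeR's scale mouse 1049 had 0.622 for Npy, all below the critical value, while Vip was tested on log2(CPM + 4) alone.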

How the results depend on the processing

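No peptide gene passed an adjusted p of 0.05 in any alternative fit of genotype (189 values over 9 genes), sex or interaction (126 values each). Genes called in DKO against Nf2 mice numbered 172 with edgeR, 831 with DESeq2, 521 with voom, 57 in females alone, 2 in males alone, and 81 to 217 with 1 mouse left out (81 without mouse 918, 87 without 917, 95 without 885, 98 without 1049, 109 without 914, 111 without 884 and 114 without 702). Sex called 3 genes, 5 with DESeq2 and 0 to 10 with 1 mouse left out, and the interaction 2, 20 and 2 to 6. Pairs of peptide genes past the threshold numbered 4, and 1 without the 2 farthest mice. They numbered 0 within Nf2 and 0 within DKO mice, where 6 mice are too few for a single pair to pass on its own. Without mouse 885, an alternative chosen after seeing the data, they were Tac1 with Gal, Calca with Calcb and with Sst, and Calcb with Sst, of which the first alone was among the original 4.

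Signs turned only where the log2 fold change was not called: in females alone for Calca (-0.11) and Npy (-0.51), in males alone for Calcb (0.014), Tac1 (-0.14), Gal (-0.18) and Nts (0.16), and for Calcb without scaling (0.013) and with voom (0.022). The difference of log2(CPM + 4) for Calcb turned with TMM scaling (-0.0023), and that of CPM + 0.5 as a ratio to pan-neuronal genes was also negative (-0.017). With 1 mouse left out, genotype values ran from -0.027 to 0.080 for Calca, -0.055 to 0.025 for Calcb, -0.049 to 0.22 for Tac1 and -0.25 to 0.061 for Nts. Those of log2(CPM + 4) ran from -0.0057 to 0.096 for Calca, -0.036 to 0.047 for Calcb, -0.0066 to 0.017 for Vip and -0.23 to 0.078 for Nts. Sex values ran from -0.070 to 0.0094 for Calcb and -0.37 to 0.20 for Nppb, and interaction values from -0.16 to 0.016 for Calcb, -1.59 to 0.012 for Sst and -0.86 to 0.49 for Nppb. With voom quality weights, and uncalled, Sst was -0.82, Nppb -1.30, Gal 0.62, Npy 0.28 and Nts -0.41. The cause was not tested. Of 160 alternatives for single genes, 3 had an exact permutation p below 0.05, 2 for Nppb and 1 for Gal. Ramp3 and Grp, whose alternatives were chosen after seeing the data, passed in 7 of 9 other settings each, all but each sex alone.

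No paired analysis was possible because every mouse number occurs once and the genotypes share none. Depth limits Vip, Npy and Grp, which had at most 8, 69 and 53 reads per mouse.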
